A study of Homo sapiens with 18 samples.

Results

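TRIB1, TRIB2 and TRIB3 are the human Tribbles genes, 3 paralogs among the 37096 named genes of the deposited table, and were taken as every row with one of these symbols. They were chosen by their unlike log2 differences between groups in these same libraries, so their levels and differences are given as a description and no test was made on them. Poly-A RNA was sequenced from HEK293T, a readily transfected line of human embryonic kidney origin, labelled wild type. The groups were methionaseNLS in DMSO at 12 h after transfection, the empty vector pLEX in DMSO at 12 h, methionaseNLS with Vps34-IN1 at 24 h, methionaseNLS in DMSO at 24 h, pLEX with Vps34-IN1 at 24 h and pLEX in DMSO at 24 h. MethionaseNLS is a methionine-degrading enzyme carrying a nuclear localisation signal, and Vps34-IN1, an inhibitor of the class 3 PI3K lipid kinase VPS34, was given at 5 µM for 12 h. Each of the 6 groups had 3 libraries.

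Several features of the design limit these groups. No group was labelled as carrying an inactive methionase, so an effect of the enzyme's activity and one of the foreign protein cannot be told apart. The labels do not say how long DMSO was given or that replicates were separate cultures, and p-values below therefore speak only to the spread among these libraries, which may be technical. Total reads ranged from 18278586 to 20825232 per library. Every methionase library (18278586 to 19910221) had fewer reads than every pLEX library (20239995 to 20825232). More genes were detected in every methionase library (25468 to 26380) than in every pLEX library (24354 to 25456). The part of this split in the methionase differences was not tested. All 7 markers listed for the HEK293T line were detected in all 18 libraries, although LHX1 had only 2 to 16 reads. Of the other cell types' markers listed, COL1A1 had 394 to 655 reads, while COL1A2, DCN, CDH5 and CD3E had 0 to 2 reads. CD14 had 1 to 11 reads, APOA1 2 to 7, ALB 0 to 20 and PECAM1 0 to 4. ALB averaged 10.68 ± 8.36 normalised reads in methionase with DMSO at 24 h and 0.611 ± 0.529 in pLEX with DMSO at 24 h (SD, n = 3 each). The summed reads of ALB and APOA1 were 10 to 26 in this methionase group and 4 in each library of this pLEX group. With Vps34-IN1 they were 9 to 19 with methionase and 6 to 9 with pLEX. At 12 h they were 6 to 15 with methionase and 5 to 7 with pLEX. The part of these genes' cell types in the results was not tested.

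Tribbles proteins are pseudokinases, kinase-like folds with little or no catalytic activity that work as scaffolds. Their pseudokinase domain holds a substrate while a tail motif recruits the E3 ubiquitin ligase COP1, and the transcription factor C/EBPα is the best known protein that TRIB1 and TRIB2 send for degradation. TRIB3 is best known as a stress gene: when amino acids are short or the endoplasmic reticulum is stressed, phosphorylated eIF2α favours translation of ATF4, and ATF4 with its partner CHOP (encoded by DDIT3) switches on TRIB3, whose protein binds AKT and ATF4.

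The sites through which ATF4 and CHOP are known to act on TRIB3 are shown because TRIB3 and the ATF4 pathway are set side by side below. The 8-letter C/EBP-ATF composite element TGATGCAA, searched on both strands, occurred 3 times in the first exon of an annotated TRIB3 transcript (GENCODE v29, hg38, chromosome 20, plus strand). It is printed in capitals in its reverse complement, within 28-base windows that were identical and spaced 33 bases apart.
TRIB3 site 1, chr20:380882-380909: tagctccggtTTGCATCAcccggaccgg
TRIB3 site 2, chr20:380915-380942: tagctccggtTTGCATCAcccggaccgg
TRIB3 site 3, chr20:380948-380975: tagctccggtTTGCATCAcccggaccgg
The 3 sites lie in the 5′ untranslated part of that transcript, whose start codon is at position 388011 in a later exon. The end of the element in site 3 lies 281 bases before position 381246, where the next annotated TRIB3 exon starts. The composite element was present in 0.866% of the 35116 promoter windows of the RefSeq table for GRCh38.p14. None of the 3 RefSeq promoter windows of TRIB3 held it, nor the AP-1 letters TGANTCA (7.71% of all promoters), the cAMP response element TGACGTCA (1.85%) or the forkhead letters TGTTTAC (3.42%).

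For TRIB2, the sequence just ahead of its first annotated exon is shown because this gene was the one that was lower with Vps34-IN1 in the empty vector. The window is on the plus strand of chromosome 2 and comes from RefSeq (GRCh38.p14), with a forkhead match in capitals at its 5′ end.
TRIB2 promoter, chr2:12716686-12716888: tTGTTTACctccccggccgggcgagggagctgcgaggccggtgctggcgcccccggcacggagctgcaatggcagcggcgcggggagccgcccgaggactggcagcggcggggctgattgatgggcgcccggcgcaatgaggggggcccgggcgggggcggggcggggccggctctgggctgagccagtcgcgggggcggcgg
The TRIB2 protein is known to restrain the forkhead factor FOXO3. Whether a forkhead factor acts on the TRIB2 promoter is a different question and was not tested. The match is a run of letters and not a measured binding site, and the TRIB2 promoter held none of the other 3 motifs. The forkhead letters were present in 3.42% of all promoter windows.

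Levels are given as normalised reads, which are reads recovered from the deposited values and divided by each library's size factor. Log2 differences are on the deposited variance-stabilised scale, with the standard error (SE) of a linear model fitted to all 17755 genes tested; this scale understates changes of genes with few reads. In bulk RNA, fewer cells with a transcript and less transcript per cell cannot be told apart.

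TRIB1 was high in 1 group only, the empty vector with Vps34-IN1. The level was 2827, 3341 and 3364 normalised reads in the 3 libraries of pLEX with Vps34-IN1, against 692, 771.8 and 695 in pLEX with DMSO at 24 h. Every drug library lay above every DMSO library, the ratio of means was 4.42 and the log2 difference was 2.02 ± 0.10 (SE). By size this difference ranked 17th of the 17755 tested genes. Among the Tribbles genes, 1 was higher and 1 was lower with no overlap between groups in this comparison, where 26.6% of all tested genes were higher and 25.8% lower with no overlap.

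With methionase the drug was not accompanied by this high TRIB1 level. Methionase with Vps34-IN1 gave 627.2, 769.9 and 901 normalised reads, against 859.8, 733.7 and 851.9 in methionase with DMSO at 24 h. These ranges overlapped, with a log2 difference of -0.09 ± 0.10. Set against pLEX with the drug, TRIB1 was lower in every library of methionase with the drug, at 0.241 times the mean level and a log2 difference of -1.95 ± 0.10. In that comparison 2 Tribbles genes were lower and 1 was higher without overlap, beside 23.7% and 20.9% of all tested genes. The methionase effect with the drug less that in DMSO, called the interaction below, was -2.11 ± 0.14 for TRIB1. These comparisons share libraries with each other and are not separate observations of the same difference.

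In DMSO, the TRIB1 ranges overlapped in every comparison made. The mean was 667.2 ± 96.2 normalised reads (SD, n = 3) with methionase at 12 h and 655.5 ± 54.2 with pLEX at 12 h, a log2 difference of 0.02 ± 0.10. At 24 h it was 815.1 ± 70.6 with methionase and 719.6 ± 45.3 with pLEX, a difference of 0.16 ± 0.10. From 12 h to 24 h TRIB1 differed by 0.26 ± 0.10 with methionase and by 0.12 ± 0.10 with pLEX. All these pairs of ranges overlapped. In the order of the 6 group means, pLEX with Vps34-IN1 at 3177 ± 303 stood apart from the next group, and no other neighbours were separated by their ranges.

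TRIB2 went the other way under the drug. The level was 286.8, 223.7 and 229.1 normalised reads in pLEX with Vps34-IN1, against 531.7, 569.1 and 484.6 in pLEX with DMSO at 24 h. The groups did not overlap, and the drug libraries averaged 0.467 times the DMSO level, a log2 difference of -0.90 ± 0.09. With methionase the drug libraries had 344, 389.4 and 305.9 normalised reads, against 442.7, 403 and 395 in DMSO. The drug libraries were again all lower, by a smaller margin of -0.21 ± 0.09. TRIB2 was the 1 Tribbles gene without overlap between those groups, beside 11.0% of all tested genes that were lower and 8.55% higher.

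The methionase difference of TRIB2 had opposite signs with and without the drug. At 24 h in DMSO, methionase averaged 413.6 ± 25.6 normalised reads and pLEX 528.5 ± 42.4 (SD, n = 3 each), with no overlap and a log2 difference of -0.30 ± 0.09. With Vps34-IN1, methionase averaged 346.4 ± 41.8 and pLEX 246.5 ± 35.0, again with no overlap but with a difference of 0.39 ± 0.09. The interaction was 0.69 ± 0.12. At 24 h in DMSO, 2 Tribbles genes were lower without overlap, TRIB2 and TRIB3, beside 25.7% of all tested genes, and none was higher without overlap, beside 23.0%.

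At 12 h TRIB2 was 443, 434.6 and 466.4 normalised reads with methionase, against 446.4, 426.4 and 497.3 with pLEX. The ranges overlapped and the log2 difference was -0.02 ± 0.09. None of the 3 genes was separated between methionase and pLEX at 12 h, where 11.8% of all tested genes were higher and 17.7% lower without overlap. In the order of group means, TRIB2 in methionase with DMSO at 24 h was separated from methionase with the drug, which was separated from pLEX with the drug. Neighbours among the 4 DMSO groups were not separated.

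TRIB3 was high in both pLEX groups at 24 h, with and without the drug. The level was 1211, 1046 and 889.4 normalised reads in pLEX with Vps34-IN1, against 1131, 1133 and 799.3 in pLEX with DMSO at 24 h. These overlapped, with a log2 difference of 0.04 ± 0.15. With methionase at 24 h it was 361.1, 503.8 and 576 under the drug, against 693, 434.9 and 580.8 in DMSO. These overlapped too, with a difference of -0.21 ± 0.15.

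Methionase libraries held less TRIB3 than pLEX libraries at 24 h. In DMSO the means were 569.5 ± 129 normalised reads with methionase and 1021 ± 192 with pLEX (SD, n = 3 each), a ratio of 0.558 and a log2 difference of -0.76 ± 0.15. With Vps34-IN1 they were 480.3 ± 109 with methionase and 1049 ± 161 with pLEX, a ratio of 0.458 and a difference of -1.02 ± 0.15. In both settings the highest methionase library lay below the lowest pLEX library. The interaction was -0.25 ± 0.21, little more than its error.

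In pLEX, TRIB3 was also higher at 24 h than at 12 h, which was not so with methionase. In pLEX with DMSO, TRIB3 averaged 1021 ± 192 normalised reads at 24 h and 626 ± 117 at 12 h, with no overlap, and the log2 difference was 0.64 ± 0.15. It was the 1 Tribbles gene separated between these times, beside 15.7% of all tested genes that were higher and 20.4% lower. With methionase it averaged 569.5 ± 129 at 24 h and 564.4 ± 50.8 at 12 h, a difference of -0.01 ± 0.15. None of the 3 genes was separated between the times with methionase, beside 23.7% of all tested genes higher and 26.3% lower. At 12 h methionase and pLEX overlapped, with a difference of -0.12 ± 0.15, and the methionase difference at 24 h less that at 12 h was -0.64 ± 0.21. The corresponding values were 0.14 ± 0.14 for TRIB1 and -0.28 ± 0.12 for TRIB2.

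**Figure D1:**
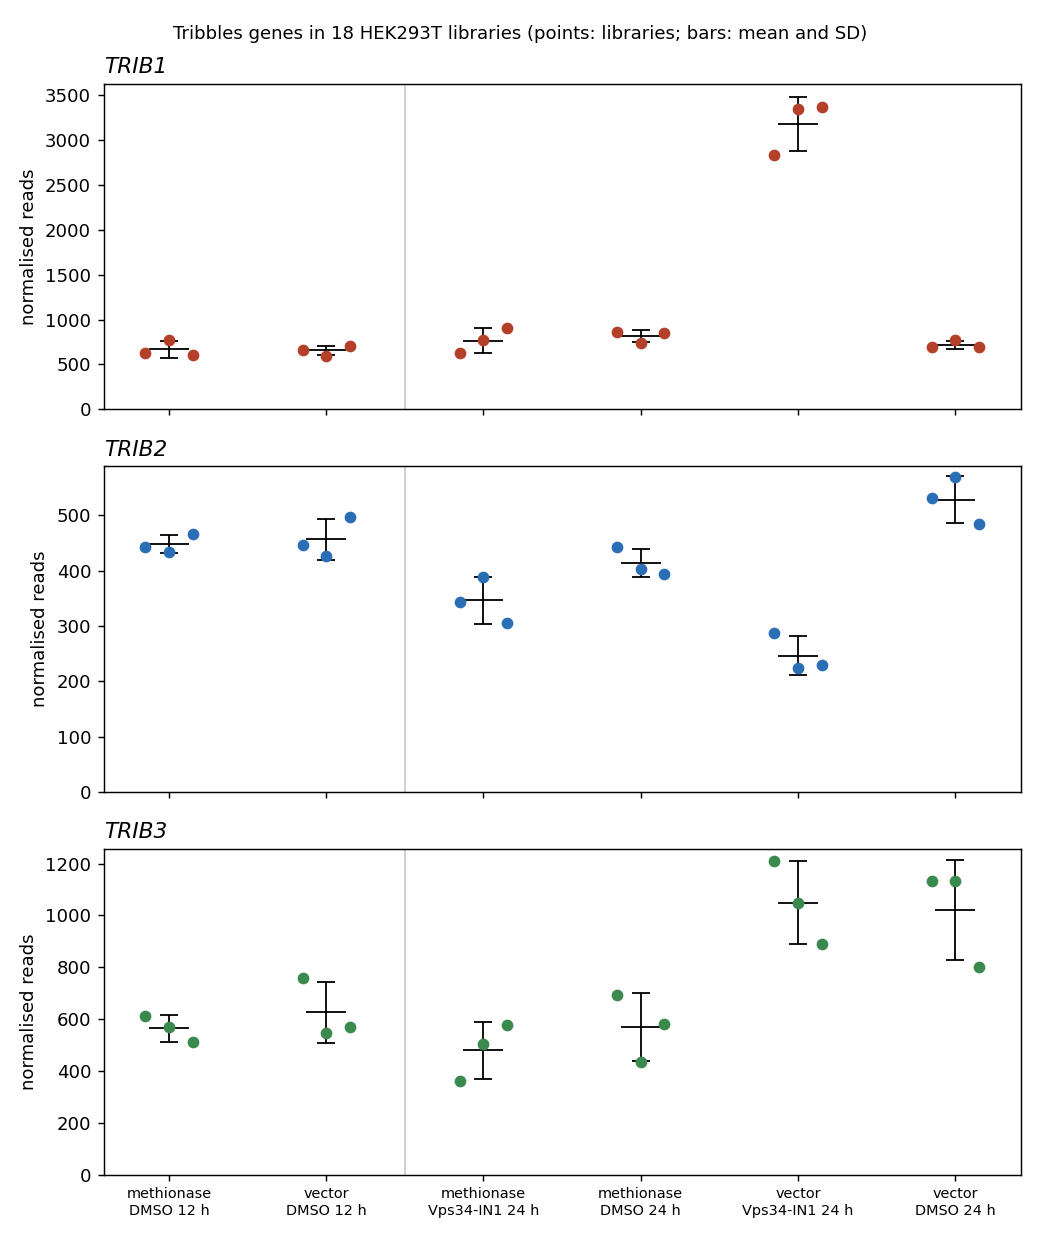
Normalised reads (vertical axis, linear, from 0) of TRIB1, TRIB2 and TRIB3 in each of the 18 libraries, by group; points are libraries, the horizontal bar is the mean and the whiskers are 1 SD (n = 3). TRIB1 is high only in pLEX with Vps34-IN1 (2827 to 3364), TRIB2 is lowest there (223.7 to 286.8), and TRIB3 is high in both pLEX groups at 24 h.

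**Figure D2:**
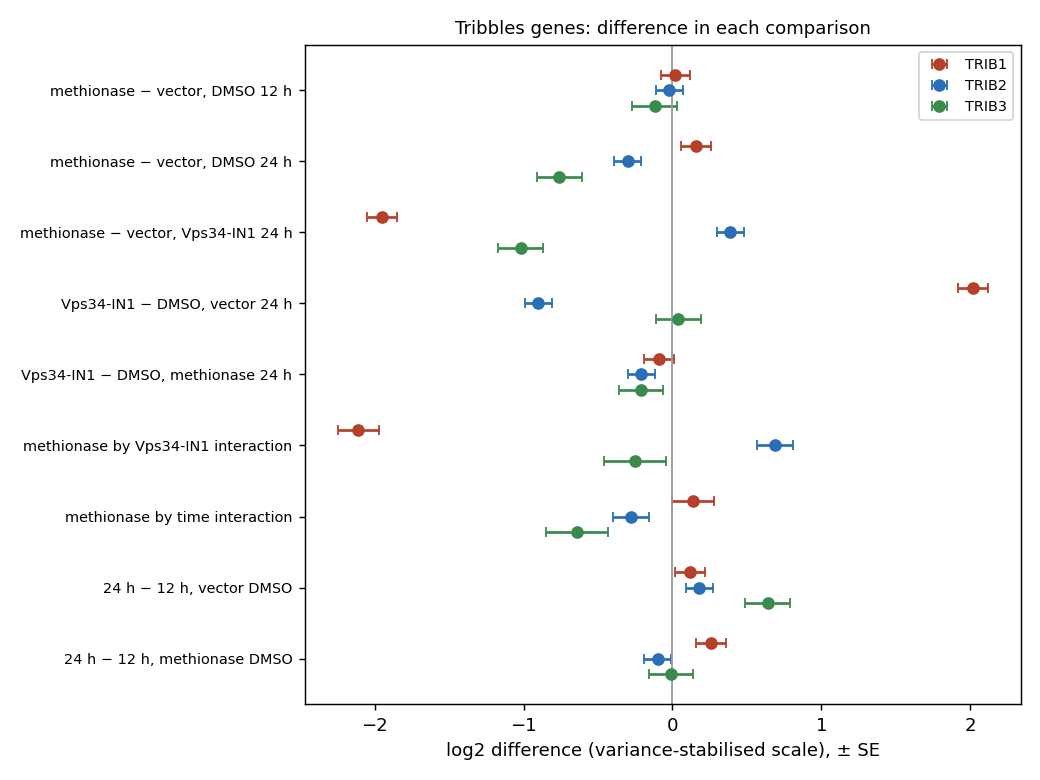
Log2 difference on the variance-stabilised scale (horizontal axis) of each Tribbles gene in 9 comparisons (rows), with bars of 1 SE. TRIB1 runs from 2.02 for the drug in pLEX to -2.11 for the interaction, while the TRIB3 differences from pLEX at 24 h are both negative.

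Per length of annotated exons the order of the paralogs' group means changed between groups. Dividing normalised reads by the union of GENCODE v29 exons (4138 bases for TRIB1, 4588 for TRIB2 and 3434 for TRIB3), pLEX with Vps34-IN1 had 767.9 reads per kilobase of TRIB1, 53.74 of TRIB2 and 305.4 of TRIB3. PLEX with DMSO at 24 h had 173.9 of TRIB1, 115.2 of TRIB2 and 297.3 of TRIB3. Of these 2 pLEX groups, TRIB1 was thus the most abundant of the 3 with the drug and TRIB3 in DMSO. In methionase with DMSO at 24 h the order was TRIB1 (197), TRIB3 (165.9) and TRIB2 (90.14), and TRIB2 was the least abundant in all 6 groups. The TRIB1 and TRIB3 libraries of this methionase group overlapped per kilobase, so their order is not resolved. The order also depends on taking all annotated exons as the length. Over the 18 libraries the log2 values of TRIB1 and TRIB2 had a Pearson r of -0.83, TRIB1 and TRIB3 of 0.57, and TRIB2 and TRIB3 of -0.11. After group means were removed these values were -0.22, 0.44 and 0.30, so most of the negative relation of TRIB1 and TRIB2 lay between groups. All libraries share the same table and scaling, and the values are descriptive.

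Each paralog's neighbours on the chromosome are given in a comparison in which the paralog itself differed strongly, and there they differed by less. The paralogs were chosen by such differences, so this contrast was partly set in advance. In other comparisons it did not always hold. Under the drug in pLEX, RBCK1, a neighbour of TRIB3, averaged 1430 ± 88.8 normalised reads, against 1240 ± 39.5 in DMSO. TRIB3 averaged 1049 ± 161 and 1021 ± 192 in these groups. TRIB1 lies on chromosome 8 (hg38, 125430358 to 125438403), between NSMCE2 and LRATD2. Under the drug in pLEX, NSMCE2 rose by 0.42 ± 0.10 (log2, limma, adjusted p = 0.00119) and LRATD2 differed by -0.02 ± 0.09 (limma, adjusted p = 0.873), beside the 2.02 of TRIB1. TRIB2 lies on chromosome 2 (12716936 to 12742734), between LPIN1 and LRATD1, which differed by 0.21 ± 0.07 and -0.04 ± 0.09 in that comparison, against -0.90 for TRIB2. The LPIN1 value passed at adjusted p = 0.0159 (limma), but not without pLEX DMSO replicate 3, Vps34-IN1 replicate 1 or Vps34-IN1 replicate 2, where adjusted p was 0.0713, 0.0636 and 0.076. TRIB3 lies on chromosome 20 (380760 to 397559), between NRSN2 and RBCK1. With methionase at 24 h in DMSO, NRSN2 fell by 0.22 (SE 0.06) and RBCK1 differed by 0.21 ± 0.07, against -0.76 for TRIB3; by limma their adjusted p were 0.00747 and 0.0132. The NRSN2 call was lost without methionase replicate 2 (adjusted p = 0.0557), and the RBCK1 call without pLEX replicate 2 (0.0599) or methionase replicate 3 (0.0715).

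The machinery that Tribbles proteins work with was followed through 24 partner genes: the COP1 ligase and its cullin complex, degraded substrates, bound kinases and other binding proteins. These are RNA levels, which measure neither the breakdown of a substrate protein nor the activity of the ligase. A gene was called when its limma p, adjusted by Benjamini-Hochberg over all 17755 tested genes, was below 0.05. This list and those below were chosen with earlier results of these data known. Their counts and medians beside all tested genes are therefore a description. With methionase at 24 h in DMSO, 1 of the 24 was higher and 11 were lower, where 18.1% of all tested genes were higher and 21.1% lower; the list's median log2 difference was -0.13, against 0.01 over all tested genes. COP1, the ligase itself, fell to 742.6 ± 42.5 normalised reads with methionase, against 1006 ± 54.1 with pLEX (log2 -0.40, adjusted p = 2.69e-05). The scaffold CUL4A (-0.40), the kinase MAP2K4 (-0.55) and the substrates CEBPA (-0.42) and CEBPB (-0.51) were lower as well, with adjusted p between 6.41e-08 and 0.00319. STK40, a related pseudokinase that also recruits COP1, fell by 0.30.

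With the drug, methionase and pLEX differed in 14 of the 24 partners, 2 higher and 12 lower, where 17.3% of all tested genes were higher and 22.2% lower; the median was -0.17, against 0.01 over all tested genes. STK40 fell to 1159 ± 99.8 normalised reads with methionase, against 1878 ± 151 with pLEX (log2 -0.66 ± 0.07, limma, adjusted p = 2.01e-07). CEBPB (-0.65), MAP2K4 (-0.54), the ubiquitin ligase gene SMURF1 (-0.43) and the autophagy receptor SQSTM1 (-0.41) were lower too. COP1 differed by -0.21 ± 0.06 (adjusted p = 0.013), a call lost without pLEX Vps34-IN1 replicate 2 (-0.16, adjusted p = 0.0849), with only the groups compared (adjusted p = 0.0605) and under quantile normalisation (-0.08, adjusted p = 0.357).

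Vps34-IN1 in pLEX changed 12 of the 24 partners, 7 higher and 5 lower, where 20.2% of all tested genes were higher and 19.9% lower; the median was -0.01, against 0.00. Among the genes of degraded substrates, CEBPA RNA fell to 233.5 ± 37.2 normalised reads with the drug, against 418.6 ± 32.7 in DMSO (log2 -0.68 ± 0.10, limma, adjusted p = 7.98e-06). The phosphatase CDC25C fell by 0.40 and CUL4A by 0.35, while ACACA, which encodes an acetyl-CoA carboxylase of fatty acid synthesis, rose by 0.48 ± 0.11. CEBPB differed by 0.20 ± 0.13 (adjusted p = 0.235) and COP1 by -0.08 ± 0.06 (adjusted p = 0.328). FOXO3 rose by 0.23 ± 0.08 (limma, adjusted p = 0.0205). With the drug it was lower in methionase than in pLEX (-0.25 ± 0.08, adjusted p = 0.0134), and its interaction was -0.32 ± 0.11 (adjusted p = 0.0379). FOXO3 was not among the named genes followed through the alternatives, so whether these calls hold there was not checked. With methionase the drug left 1 partner called, MAP2K4 at -0.19 (adjusted p = 0.0432), where 2.95% of all tested genes were higher and 4.98% lower; the median was -0.01, against 0.00 over all. That call was lost without any 1 of methionase DMSO replicates 1, 2 and 3 and methionase Vps34-IN1 replicates 1 and 2 (adjusted p 0.0505 to 0.13). The count became 0 without methionase DMSO replicate 1 or 3 or methionase Vps34-IN1 replicate 1.

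The interaction was called in 6 partners, 2 higher and 4 lower, where 9.92% of all tested genes were higher and 11.9% lower, with a median of -0.08 against 0.00. CEBPA (0.52 ± 0.14) and CUL4A (0.41 ± 0.09) were positive, as TRIB2 was. ACACA (-0.55 ± 0.15), SQSTM1 (-0.36 ± 0.08) and STK40 (-0.36 ± 0.10) were negative, as TRIB1 was; adjusted p of these 5 by limma ranged from 0.00233 to 0.0131. At 12 h, 1 partner was called, CUL4B at -0.28 ± 0.07 (adjusted p = 0.034), where 0.681% of all tested genes were higher and 1.49% lower. It was lost on leaving out any 1 of the 6 libraries, with adjusted p from 0.0587 to 0.164. MAP2K1 and AKT1, kinases that Tribbles proteins bind, were not called in any of the 9 comparisons.

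The integrated stress response, the pathway that controls TRIB3, was followed through 31 genes, of which 30 were tested; FGF21 was too low. With methionase at 24 h in DMSO, 6 were higher and 16 lower, where 18.1% of all tested genes were higher and 21.1% lower; the median log2 difference was -0.38, against 0.01 over all tested genes. CHAC1, a glutathione-degrading enzyme and ATF4 target, fell to 141.5 ± 29.1 normalised reads with methionase, against 822.4 ± 247 with pLEX (log2 -2.02 ± 0.20, limma, adjusted p = 4.24e-08). The neutral amino acid transporter SLC1A4 fell by 1.10 (SE 0.10, adjusted p = 7.85e-09). In the other direction, ATF3, a stress-induced transcription factor, rose to 14504 ± 3177 normalised reads with methionase, against 2534 ± 444 with pLEX (log2 2.47 ± 0.22), and the eIF2α phosphatase subunit PPP1R15A rose by 1.35 ± 0.13. The asparagine synthetase gene ASNS, also an ATF4 target, rose by 0.55 ± 0.14 (adjusted p = 0.00372). TRIB3, at -0.76 in this comparison, thus had the sign of CHAC1 and SLC1A4 and not that of ASNS.

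Of the factors known to act on TRIB3, DDIT3 was called in the opposite direction to it here and ATF4 was not called. ATF4 averaged 25730 ± 1790 normalised reads with methionase and 28755 ± 304 with pLEX, a log2 difference of -0.16 ± 0.08 that was not called (limma, adjusted p = 0.135), although it was under quantile normalisation (-0.37, adjusted p = 0.000297). DDIT3 rose by 0.65 ± 0.20 (adjusted p = 0.0113), a call lost without pLEX DMSO replicate 3 (0.48, adjusted p = 0.0812). ATF4 is controlled mainly at translation, which RNA counts do not measure.

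With the drug, methionase against pLEX gave 0 higher and 15 lower of the 30 stress genes by limma, 0 and 16 at an unadjusted p under 0.05 and 0 and 15 by voom. Over all tested genes 17.3% were higher and 22.2% lower, and the list's median was -0.21, against 0.01 over all. EIF2AK3, the eIF2α kinase of the endoplasmic reticulum, fell by 1.36 (SE 0.09, limma, adjusted p = 1.22e-10). The stress gene SESN2 fell by 1.12, CHAC1 by 1.10 and the amino acid transporter SLC7A5 by 0.76, with adjusted p between 1.73e-06 and 0.000136. DDIT3 was lower too (-0.54 ± 0.20, limma, adjusted p = 0.0323). That call was lost without any 1 of pLEX Vps34-IN1 replicates 1, 2 and 3 or methionase Vps34-IN1 replicate 1 (adjusted p 0.054 to 0.308). It was also lost without the filter (0.0831) and under quantile normalisation (0.108). TRIB3 differed by -1.02 in the same libraries, with the sign of DDIT3.

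Vps34-IN1 in pLEX changed 24 of the 30 stress genes, 14 higher and 10 lower, where 20.2% of all tested genes were higher and 19.9% lower; the median was 0.19, against 0.00 over all. ATF3 rose to 33549 ± 3325 normalised reads with the drug, against 2534 ± 444 in DMSO (log2 3.69 ± 0.22, limma, adjusted p = 1.22e-11). PPP1R15A rose by 1.92 ± 0.13, DDIT3 by 1.90 ± 0.20 and ASNS by 0.86 ± 0.14, while CHAC1 fell by 0.76 (SE 0.20, adjusted p = 0.00408). TRIB3, at 0.04 ± 0.15, was between these. ATF4 differed by 0.23 ± 0.08 (adjusted p = 0.0319), a call lost without any 1 of pLEX DMSO replicates 1, 2 and 3 and pLEX Vps34-IN1 replicates 2 and 3 (adjusted p 0.0582 to 0.116). It was also lost without the filter (adjusted p = 0.0691) and under quantile normalisation, which turned its sign to -0.06.

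With methionase the drug called 4 stress genes, 3 higher and 1 lower, where 2.95% of all tested genes were higher and 4.98% lower; the median was 0.09, against 0.00 over all. The receptor gene VLDLR fell by 0.42 (SE 0.09, limma, adjusted p = 0.00398). DDIT3 (0.70), PPP1R15A (0.49) and ATF4 (0.30) were higher at adjusted p between 0.026 and 0.0289. The count was 1 without methionase DMSO replicate 3 or methionase Vps34-IN1 replicate 2, 2 without methionase Vps34-IN1 replicate 3 and 10 without methionase Vps34-IN1 replicate 1. Each of the 3 higher calls was lost without methionase DMSO replicate 3 or methionase Vps34-IN1 replicates 2 or 3. DDIT3 was also lost without methionase DMSO replicate 2, and PPP1R15A without methionase DMSO replicate 1. Over all these losses adjusted p ran from 0.0524 to 0.135. All 3 were also lost without the filter on low genes (adjusted p 0.063 to 0.0803), DDIT3 without the variance trend (0.051), and ATF4 and PPP1R15A with only the groups compared (0.201 and 0.117). Quantile normalisation brought ATF4 to 0.16 (adjusted p = 0.165).

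The interaction was called in 12 stress genes, 6 on each side, where 9.92% of all tested genes were higher and 11.9% lower; the median was -0.08, against 0.00 over all. ATF3 (-3.19 ± 0.31), PPP1R15A (-1.44 ± 0.19), DDIT3 (-1.19 ± 0.28) and EIF2AK3 (-0.92 ± 0.12) had the sign of TRIB1, with adjusted p by limma between 2.32e-07 and 0.00339. CHAC1 (0.92) and ATF5 (0.58 ± 0.14) were positive. The CHAC1 call was lost in alternatives given below, and the ATF5 call was not followed through them. In methionase with the drug ATF3 averaged 21333 ± 7649 normalised reads, PPP1R15A 3029 ± 837, DDIT3 1418 ± 493 and EIF2AK3 215.4 ± 44.1. In pLEX with DMSO at 24 h they averaged 2534 ± 444, 767 ± 35.8, 487.8 ± 115 and 339.9 ± 18.9. TRIB1 averaged 766 ± 137 and 719.6 ± 45.3 in these groups, so the shared sign was not a shared pattern for the first 3. At 12 h limma called 0 of the 30 and voom 0, beside 2 higher and 1 lower at an unadjusted p under 0.05. Few genes were called there at all, 0.681% of all tested genes higher and 1.49% lower. The list's median was -0.03, and without methionase 12 h replicate 3 the count was 1. In pLEX with DMSO, CHAC1 was higher at 24 h than at 12 h, at 822.4 ± 247 and 431.5 ± 172 normalised reads (log2 0.84 ± 0.20, adjusted p = 0.00892), as TRIB3 was. That call was lost without pLEX 12 h replicate 3 or pLEX 24 h replicate 1 (adjusted p 0.0914 and 0.0806). DDIT3 was higher at 24 h there as well (0.64 ± 0.20, limma, adjusted p = 0.0379), beside 0.64 ± 0.15 for TRIB3. The DDIT3 call was lost without pLEX 12 h replicates 2 or 3 or pLEX 24 h replicates 1 or 2 (adjusted p 0.103 to 0.263). It was also lost without the filter (0.105) and without the variance trend (0.0607). The methionase by time interaction of CHAC1 was -2.26 ± 0.28 (adjusted p = 1.76e-05), beside -0.64 ± 0.21 for TRIB3.

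**Figure D3:**
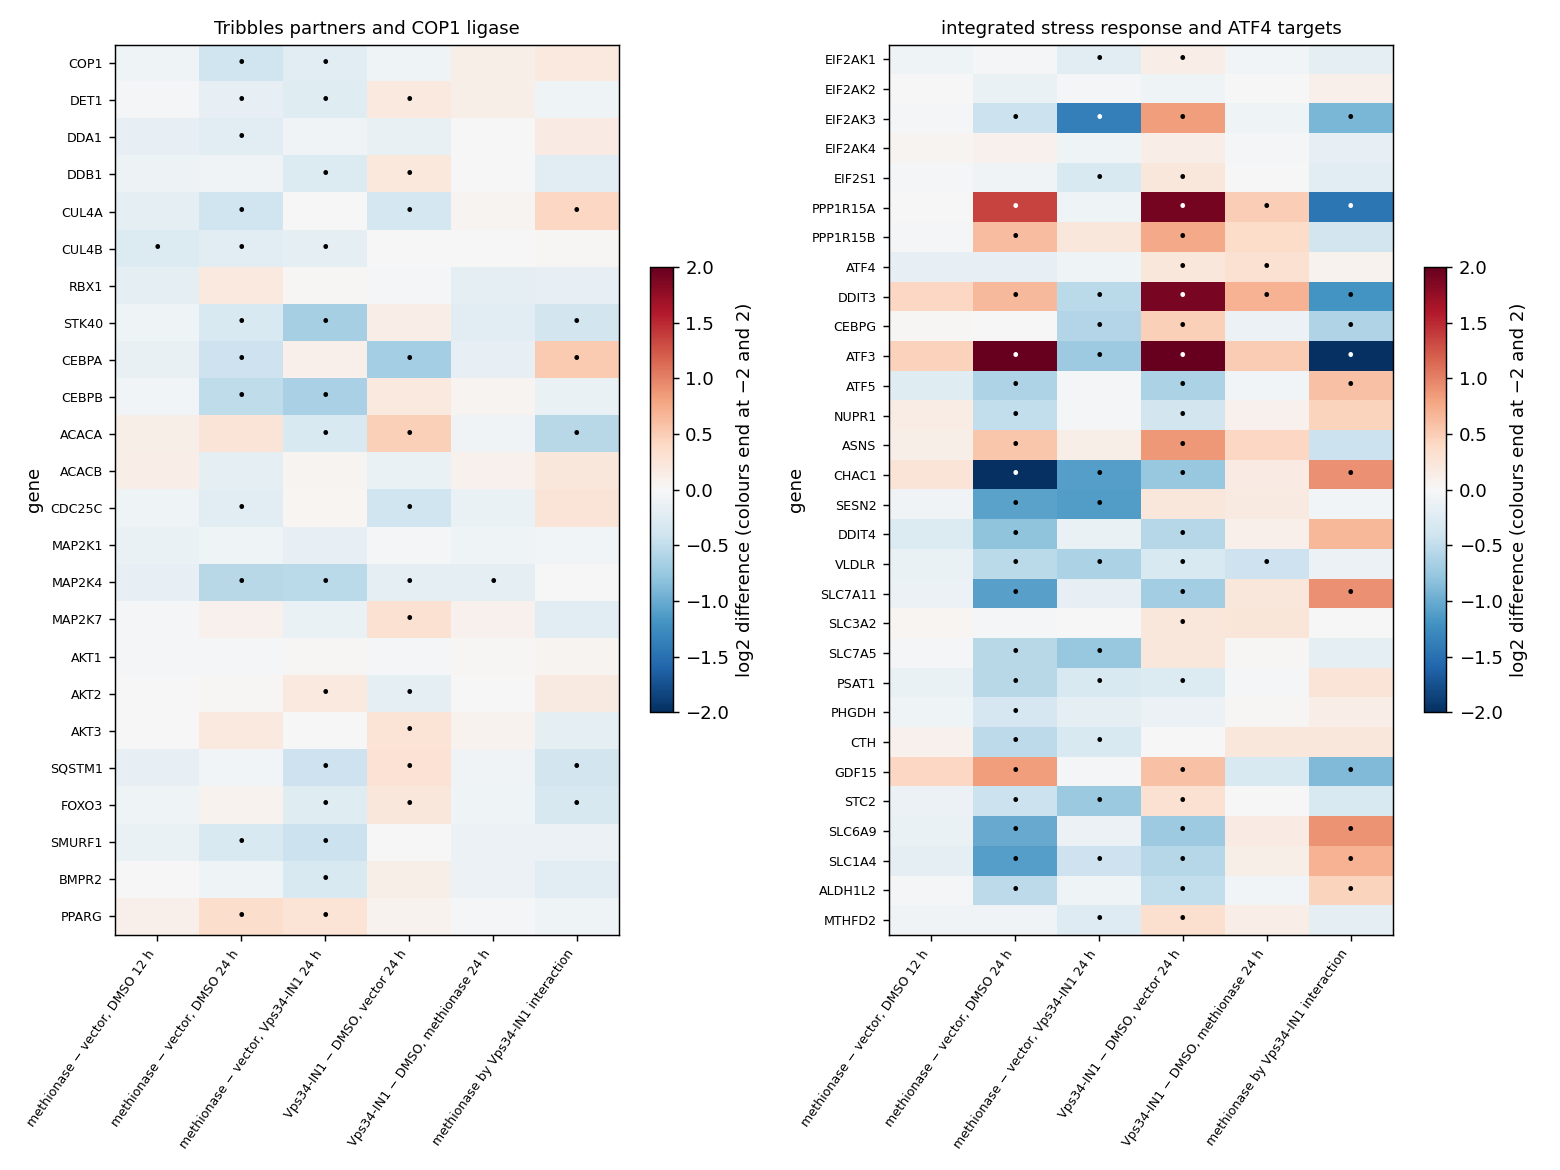
Log2 difference on the variance-stabilised scale (colour, ending at -2 and 2) of the 24 partner genes and the 30 tested stress genes (rows) in 6 comparisons (columns); a dot marks a gene called by limma at an adjusted p below 0.05. Methionase at 24 h in DMSO has 11 lower and 1 higher partners and 16 lower and 6 higher stress genes, and the 12 h column has 1 dot in all.

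Growth factor signalling through MEK and ERK was followed because TRIB1 binds MEK1 (encoded by MAP2K1); 15 of 17 listed target genes were tested, SPRY4 and IER3 being left out. Under the drug in pLEX, 3 of the 15 were higher and 4 lower, close to the 20.2% and 19.9% of all tested genes, and the median was -0.12, against 0.00 over all. DUSP5, a phosphatase that acts on ERK, rose to 470.2 ± 8.19 normalised reads with Vps34-IN1, against 113.7 ± 14.3 in DMSO (log2 1.54 ± 0.09, limma, adjusted p = 1.02e-11). The transcription factor MYC rose by 1.51 ± 0.07, while the cyclin CCND1 fell by 1.07 and the immediate early gene EGR1 by 1.01. With the drug, methionase against pLEX gave 1 higher and 5 lower, where 17.3% of all tested genes were higher and 22.2% lower, with a median of -0.08 against 0.01. The lower genes included DUSP5 (-1.12 ± 0.09), MYC (-0.70 ± 0.07), SPRED1 (-0.57 ± 0.09) and EGR1 (-0.43 ± 0.12). DUSP5 and MYC thus had the signs of TRIB1 in both, though MYC was at 7535 ± 499 normalised reads in methionase with the drug and at 4509 ± 309 in methionase with DMSO, where TRIB1 overlapped.

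At 24 h in DMSO, methionase against pLEX called 4 of the 15 higher and 4 lower, close to the 18.1% and 21.1% of all tested genes, with a median of 0.01 equal to that of all tested genes. DUSP5 rose by 0.80 ± 0.09 and EGR1 fell by 1.07 (limma, adjusted p = 3.22e-07 and 2.88e-07). With methionase the drug called 1 higher and 4 lower, where 2.95% of all tested genes were higher and 4.98% lower, with a median of -0.22 against 0.00. The count was 3 without methionase DMSO replicate 1. MYC rose by 0.73 ± 0.07 (adjusted p = 3.14e-07) and CCND1 fell by 0.52. The interaction was called in 6, 2 higher and 4 lower, where 9.92% of all tested genes were higher and 11.9% lower, with a median of -0.18 against 0.00. DUSP5 was at -1.92 ± 0.13 and MYC at -0.78 ± 0.10. At 12 h limma called MYC higher (0.40 ± 0.07, adjusted p = 0.00519) and SPRY1 lower (-0.48 ± 0.12, adjusted p = 0.0303). Over all tested genes 0.681% were higher and 1.49% lower, and the list's median was 0.11 against 0.00. The SPRY1 call was lost on leaving out any 1 of the 6 libraries (adjusted p 0.0562 to 0.142), and the MYC call without methionase replicate 2 (0.0768).

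Other genes had patterns close to each paralog over the 18 libraries. By Pearson r of log2 values, the 5 nearest to TRIB1 were TUFT1 (0.975), HEATR6 (0.972), SLC19A2 (0.958), DDX58 (0.954) and GOLGA5 (0.950). All 5 were highest in pLEX with Vps34-IN1: TUFT1 averaged 1011 normalised reads there and 369.9 in pLEX with DMSO at 24 h, and the thiamine transporter gene SLC19A2 1317 in pLEX with the drug and 737.6 in pLEX with DMSO. The 5 nearest to TRIB2 were CAVIN1 (0.958), SLC35E4 (0.955), NOVA2 (0.952), KCNJ12 (0.951) and MCAM (0.951). All were lowest in pLEX with the drug, where KCNJ12, a potassium channel gene, averaged 109.6 normalised reads, against 321 in pLEX with DMSO.

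Genes near to TRIB3 were CD99L2 (0.927), CEBPB (0.90), UCK2 (0.899) and HK2 (0.898). HK2, a hexokinase of glycolysis, averaged 1997 normalised reads in methionase with the drug and 3309 in pLEX with the drug. CEBPB, which is also in the partner list, averaged 292 in methionase with the drug and 508.2 in pLEX with the drug. After group means were removed, r over the 18 libraries lay between 0.45 and 0.79 for these 14 genes, so the likeness was partly one of single libraries. The genes were ranked by these values among all tested genes, and r is given as a description.

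**Figure D4:**
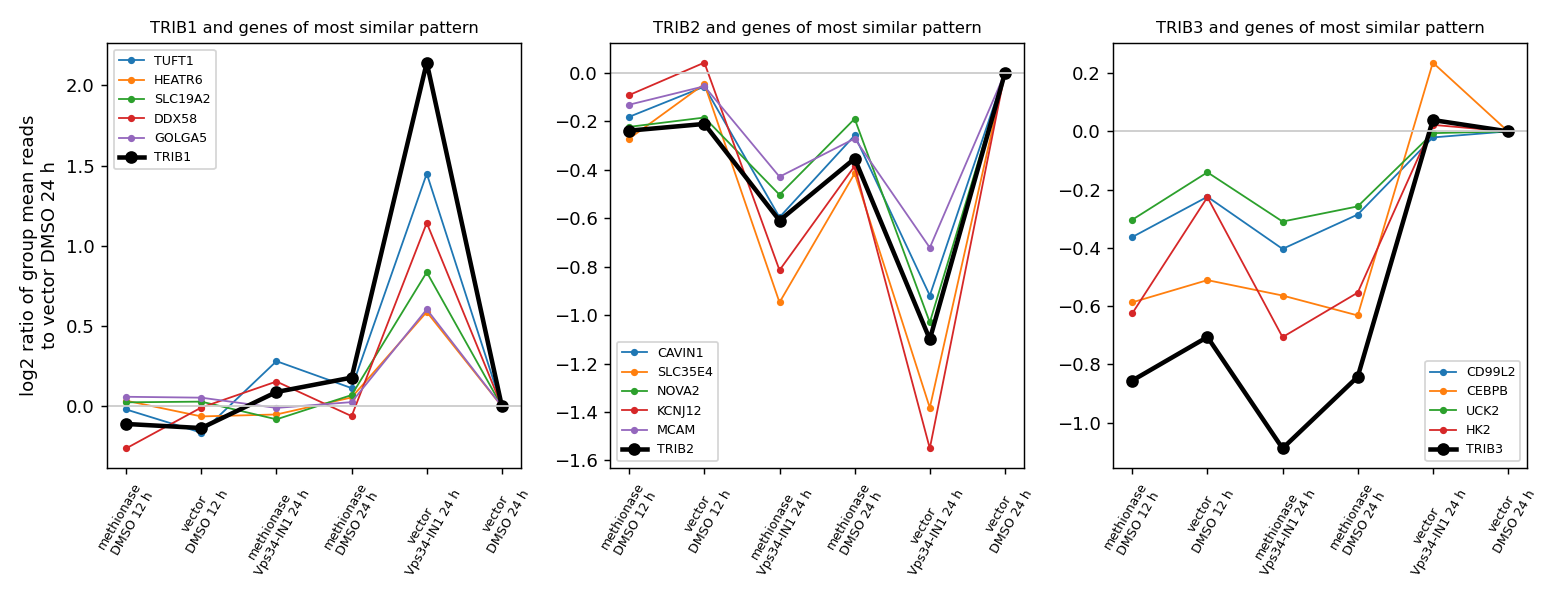
Log2 ratio of each group's mean normalised reads to pLEX with DMSO at 24 h (vertical axis) for each Tribbles gene (black) and the named genes with a high Pearson r over 18 libraries (colours), by group. TRIB1 has the highest peak of its set in pLEX with Vps34-IN1, and TRIB3 the lowest values of its set in the methionase groups.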

How the data were processed

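Poly-A RNA of 18 HEK293T libraries was measured, and samples were grouped by their labels. The authors deposited log2 values that had been variance-stabilised. The tools named are hg38, limma, DESeq2, featureCounts and STAR 2.7.10b, per the submitters' processing notes. Which tool did what, the annotation and the strand setting are not given in the sources used here. Reads of overlapping antisense genes may therefore not be told apart. All libraries carry 1 batch label.

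The transformation was inverted to recover reads, which were whole within 0.01 for 100% of the values. Size factors ran from 0.89 to 1.1. A line naming no gene took at most 0.0022% of the reads and was left out. Genes with a mean at least 0.5 above the lowest log2 value of 5.45 were tested (17755). Limma 3.58.1 in R 4.3.3 was fitted to the deposited log2 values with 1 mean per group and a variance trend, and called genes had a Benjamini-Hochberg adjusted p below 0.05. The procedure was tested on simulated data. Libraries of 1 group differed by more than sampling noise, with a chi-square per gene of 2.52 or more.

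The Tribbles genes and the 3 gene lists were chosen with earlier results of these data known. Named genes were the Tribbles genes, 14 followed genes, their chromosomal neighbours, up to 4 called list genes with the largest difference per list and comparison, and the 5 genes most like each paralog, of which 1 is not reported here. Alternatives were other filters, normalisations, variance models, sample sets, a replicate block, voom on the recovered counts and leaving out each library. Sequences came from RefSeq (GRCh38.p14) and GENCODE v29; for TRIB1 none is shown.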

Additional observations from a re-analysis of the deposited data

Results flagged for a closer look

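The methionase effect at 24 h differed with and without Vps34-IN1 in 15 named genes by the interaction term of limma. It was negative for ATF3 (-3.19), DUSP5 (-1.92), PPP1R15A (-1.44), DDIT3 (-1.19), EIF2AK3 (-0.92), MYC (-0.78), ACACA (-0.55), SQSTM1 (-0.36), STK40 (-0.36) and LPIN1 (-0.34), a neighbour of TRIB2. It was positive for CHAC1 (0.92), EGR1 (0.64), CCND1 (0.55), CEBPA (0.52) and CUL4A (0.41). The CHAC1 call, at adjusted p = 0.0226 by limma, was lost without pLEX DMSO replicate 1, methionase DMSO replicate 2, pLEX Vps34-IN1 replicate 2 or 3, or methionase Vps34-IN1 replicate 2 (adjusted p 0.0516 to 0.0832). It was also lost under voom on recovered counts (0.0669) and without the filter on low genes (0.0652). The EGR1 call was lost under voom (0.79, adjusted p = 0.0811).

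The methionase effect in DMSO differed between 24 h and 12 h for CHAC1 (-2.26), EGR1 (-0.80), LRATD2 (-0.46) and COP1 (-0.31). The LRATD2 call was lost without methionase 12 h replicate 2 (-0.38, adjusted p = 0.0621) and without the filter (adjusted p = 0.0501). The COP1 call, at adjusted p = 0.027, was lost without pLEX 12 h replicates 2 or 3, methionase 12 h replicates 1 or 3, pLEX 24 h replicates 1 or 2, or methionase 24 h replicate 3 (adjusted p 0.0524 to 0.0831), and with equal library medians (0.0704).

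TRIB2 was lower in all methionase libraries than in all pLEX libraries in DMSO at 24 h (-0.30) and higher in all of them with Vps34-IN1 (0.39). This difference in direction was not tested, since TRIB2 was chosen for its response in these comparisons.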

How the results depend on the processing

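The 27 Tribbles differences moved by less than the spread between replicates in all alternatives except voom on recovered counts, where TRIB2 was -1.10 for the drug in pLEX and 0.85 for the interaction. Counts of called list genes moved by more than 1.5 times only at 12 h and for the drug with methionase. Partners at 12 h numbered 0 without the filter, under quantile normalisation and without the variance trend, and 3 with only the groups compared. Stress genes at 12 h numbered 1 with only the groups compared, and growth factor genes 1 without the filter, under quantile normalisation and without the trend. For the drug with methionase, partners numbered 0 without the filter, with equal library medians, without the trend, with the replicate block, under voom and with only the groups compared. There stress genes numbered 1 without the filter, 7 with equal medians and 2 with only the groups compared, and growth factor genes 3 without the filter and 2 with only the groups compared. Leaving out each library gave 0 partners in all cases, 0 to 1 stress genes and 0 to 1 growth factor genes at 12 h. For the drug with methionase it gave 0 to 1 partners, 1 to 10 stress genes and 3 to 6 growth factor genes. Under quantile normalisation ATF4 turned to -0.06 for the drug in pLEX (limma, adjusted p = 0.531). The cause of these moves was not tested.

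Replicate numbers were checked as pairs: 13 of 45 same-number pairs had a correlation of deviations above 0.1 (-0.308 to 0.352). Of the 18 libraries, 6 were closest to their own number. No clear pairing was seen, but this check cannot show whether libraries of the same number shared a culture. The block left the Tribbles differences as they were (TRIB1 2.02 for the drug in pLEX). With about 219 to 3271 reads per Tribbles gene and library, and 3 libraries per group, small differences are limited by the spread between libraries.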
